A study of Mus musculus with 8 samples.

Results

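De novo lipogenesis is the synthesis of fatty acids from carbohydrate carbon. Its enzymes and regulators were followed here through 10 genes, taken by symbol from a feature list of 56749 entries: Acly, Me1, Acaca, Acacb, Fasn, Elovl6, Scd1, Srebf1, Mlxipl and Thrsp. All 10 were found, and they were read gene by gene in nuclei of visceral white adipose tissue, the fat depot around the abdominal organs. The tissue came from 8 mice in 4 groups of 2. The mCherry SD mice (rep144 and rep146) had the genotype p21+/mCherry and ate a standard diet. The mCherry HFD mice (rep128 and rep129) had that genotype and ate a high-fat diet (HFD). The Tert HFD mice (rep134 and rep136) were p21+/mCherry-Tert, the TertCi HFD mice (rep138 and rep140) were p21+/mCherry-TertCi, and both groups ate the high-fat diet. Every animal, controls included, thus carried an insertion in 1 allele of the p21 gene (Cdkn1a), and the design text of the series names the p21 promoter as the driver of Tert and TertCi. Tert encodes the catalytic subunit of telomerase, the labels do not spell out TertCi, and the age, sex and strain of the mice are not given in the sources used here. The design text also speaks of the stromal vascular fraction and of p21+/- mice, so it differs from the sample labels, which were followed.

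In fat cells, citrate leaves the mitochondrion and is split by ATP citrate lyase (Acly) into acetyl-CoA in the cytosol. Acetyl-CoA carboxylases (Acaca in the cytosol, Acacb at the mitochondrial surface) turn it into malonyl-CoA, and fatty acid synthase (Fasn) builds palmitate with NADPH that malic enzyme (Me1) helps to supply. Elovl6 lengthens palmitate and Scd1 puts in a double bond. Insulin acts on these genes largely through SREBP-1c, which Srebf1 encodes, and sugar acts through ChREBP, which Mlxipl encodes. Thrsp encodes a small protein of lipogenic tissues that responds to thyroid hormone and carbohydrate. Malonyl-CoA made by Acacb is known to restrain the entry of fatty acids into mitochondria.

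RNA was counted per droplet as unique molecular identifiers (UMIs), which count molecules and not reads. Libraries held 23378488 to 139749876 UMIs, and 1978 to 7433 nuclei were kept per library, 30209 in all. Nuclei were clustered, and clusters were named from marker genes. Of 36 clusters, 4 were adipocyte-like and 12 carried markers of a second lineage and were left out as mixed. The adipocyte-like class held 5228 nuclei: 594 and 843 in mCherry SD, 176 and 57 in mCherry HFD, 478 and 862 in Tert HFD, and 1728 and 490 in TertCi HFD. All 10 adipocyte markers, which also served to name the class, were detected in it in every library. They were also all detected in progenitor-like, macrophage-like and mural-like nuclei of every library, so detection does not single out the adipocyte-like class. The mCherry HFD library rep129 stood apart, with 395690 UMIs in this class against up to 13121262 elsewhere. Library pairs shared between 0 and 16 barcodes. Levels are given as CPM, a gene's count relative to the sum of the pool it was counted in, on 1 scale for all libraries. For a class of nuclei that pool is the UMIs of the class in a library. Neither inserted gene checked the labels. Over all barcodes of a library, Tert was counted at 2.66 and 2.01 CPM in the Tert HFD libraries against 3.27 and 3.58 in mCherry HFD. The count of mCherry was 0 to 17 UMIs per library.

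The starts of genes are where the regulators named above are known to bind. Letters of 6 motifs, not all of them motifs of these regulators, were looked for in the 250 bases upstream of each start. Both strands were searched, in RefSeq windows of build GRCm38.p6. The submitters' processing notes name another build, mm39, for the counts. Windows were found for 9 of the 10 genes, 13 in all, and none for Scd1. The E-box letters CACGTG, which ChREBP and SREBP-1c can both bind, stood in 1 of the 13 windows, an upstream start of Mlxipl itself, and in 6.02% of 32851 windows of the same length. CCAAT letters stood in 7 of the 13 windows, those of 6 genes, and in 33.8% of all windows. GGGCGG, the GC box, stood in 5 of the 13, those of 4 genes, and in 32.7% of all windows. ATCACCC, letters of a sterol regulatory element, stood in the Fasn window alone (2.28%). TTCNNNGAA, the STAT motif (7.02% of all windows), and the LXR motif DR4, AGGTCA repeated after 4 bases (0.0152%), were in none. The 4 windows below are those of Mlxipl, Acacb and Thrsp, with E-box, CCAAT and GC box letters in capitals. The Mlxipl starts lie 17001 bases apart on the plus strand, at chr5:135089640-135089889 and chr5:135106641-135106890, and counts per gene cannot tell their transcripts apart. The Acacb window is chr5:114165268-114165517 on the plus strand and that of Thrsp is chr7:97417551-97417800 on the minus strand.
Mlxipl, upstream start: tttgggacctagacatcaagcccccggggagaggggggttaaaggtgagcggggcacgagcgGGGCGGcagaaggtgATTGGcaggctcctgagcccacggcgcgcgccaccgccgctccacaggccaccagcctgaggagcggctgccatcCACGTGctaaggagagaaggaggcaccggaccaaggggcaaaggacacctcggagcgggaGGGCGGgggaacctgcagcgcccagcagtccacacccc
Mlxipl, downstream start: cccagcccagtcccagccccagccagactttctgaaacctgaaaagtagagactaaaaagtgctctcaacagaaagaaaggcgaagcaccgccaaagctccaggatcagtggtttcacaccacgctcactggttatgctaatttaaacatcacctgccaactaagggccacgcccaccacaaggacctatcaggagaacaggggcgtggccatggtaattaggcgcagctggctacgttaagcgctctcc
Acacb: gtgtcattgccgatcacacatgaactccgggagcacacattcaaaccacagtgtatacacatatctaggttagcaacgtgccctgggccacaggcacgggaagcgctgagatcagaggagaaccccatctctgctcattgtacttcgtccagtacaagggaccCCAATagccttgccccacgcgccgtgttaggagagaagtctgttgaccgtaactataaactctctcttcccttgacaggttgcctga
Thrsp: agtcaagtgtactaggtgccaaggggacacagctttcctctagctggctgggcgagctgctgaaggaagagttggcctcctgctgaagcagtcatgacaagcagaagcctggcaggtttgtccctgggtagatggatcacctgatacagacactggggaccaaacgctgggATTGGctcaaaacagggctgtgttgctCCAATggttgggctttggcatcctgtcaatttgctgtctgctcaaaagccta
Only the upstream Mlxipl window held the E-box, 98 bases before the start, and the downstream window held none of the 6 motifs. The Acacb window held CCAAT letters 87 bases before the start. The Thrsp window held them 79 and 52 bases before it, in the reverse and forward direction. These matches describe letters and do not show binding.

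The question of the diet comparison was how 2 mice on the high-fat diet differed from 2 on the standard diet with the same genotype. In adipocyte-like nuclei both acetyl-CoA carboxylase genes, the desaturase gene Scd1 and the regulator gene Srebf1 were lower on the high-fat diet. Acacb moved most, and all 6 mice on the high-fat diet were below both on the standard diet. Acly, Fasn, Elovl6 and Me1 did not pass the test. Their fitted differences were above 0, but that of Acly was -0.51 without rep146, that of Elovl6 -1.05 without rep129 and that of Me1 -0.14 with clusters made without the 10 genes and the lists. In all, 4 of the 10 genes fell and 0 rose by edgeR's quasi-likelihood test on UMI counts summed per library, at a Benjamini-Hochberg adjusted p under 0.05. The background was 20.6% of the 14068 genes tested, 7.93% lower and 12.7% higher. The median log2 difference was -0.68 over the 10 genes and 0.03 over all genes.

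Acacb stood at 509 and 387 CPM in the mCherry SD mice, 69.8 and 48.0 in mCherry HFD, 68.8 and 47.5 in Tert HFD, and 119 and 64.1 in TertCi HFD. Both standard-diet mice lay more than 3-fold above all 6 mice on the high-fat diet. The fall with diet was 8.92-fold (log2 -3.16, SE 0.32, edgeR adjusted p 0.000564). This call held under all 22 alternatives, among them the removal of each library in turn, with log2 differences between -3.73 and -1.96 and an adjusted p of at most 0.022. Acaca, the cytosolic form, stood at 1418 and 798 CPM in mCherry SD, 435 and 372 in mCherry HFD, 612 and 921 in Tert HFD, and 309 and 842 in TertCi HFD. Its standard-diet mice differed from each other nearly as much as the lower of them differed from mouse rep128, and the groups did not overlap. The fall was 3.43-fold (log2 -1.78, SE 0.50, edgeR adjusted p 0.0318). It was lost without mouse rep144, rep128 or rep129 (edgeR adjusted p 0.167, 0.188 and 0.129) and under DESeq2 (adjusted p 0.0574). It was also lost with mixed clusters included and in cluster 12 alone (edgeR adjusted p 0.0544 and 0.0594).

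Scd1 had 247 and 266 CPM in mCherry SD and 219 and 174 in mCherry HFD, a fall of 1.59-fold (log2 -0.67, SE 0.18, edgeR adjusted p 0.0289). Srebf1 had 111 and 101 CPM in mCherry SD and 72.2 and 50.5 in mCherry HFD, a fall of 2.03-fold (log2 -1.02, SE 0.31, edgeR adjusted p 0.0440). Neither gene's groups overlapped, but the gaps were small, and both calls were lost on removal of any 1 of the 4 mice compared. The largest adjusted p without a mouse was 0.110 for Scd1 and 0.156 for Srebf1. The Scd1 call was also lost with libraries thinned to the smallest (log2 -0.44, edgeR adjusted p 0.263), with mixed clusters included (-0.71, 0.0518) and in cluster 12 alone (-0.37, 0.240), and the Srebf1 call in cluster 12 alone (-0.71, 0.159). Mlxipl, at 287 and 353 CPM in mCherry SD against 270 and 195 in mCherry HFD, missed the threshold (log2 -0.74, SE 0.24, edgeR adjusted p 0.0530). Thrsp overlapped between the groups, at 75.2 and 98.8 against 76.6 and 48.0 CPM (log2 -0.69, SE 0.28, edgeR adjusted p 0.107).

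The other enzymes gave no call. Fasn had 44.7 and 18.7 CPM in mCherry SD and 74.2 and 60.7 in mCherry HFD (log2 0.84, SE 0.77, edgeR adjusted p 0.477). Me1 had 312 and 221 CPM against 451 and 387 (log2 0.34, SE 0.41, edgeR adjusted p 0.600). For both, the mice on the high-fat diet lay above the others, and the intervals of the log2 difference, -0.87 to 2.55 and -0.58 to 1.26, allowed a change either way. Acly overlapped, at 81.6 and 31.6 against 78.4 and 73.3 CPM (log2 0.13, SE 0.66, edgeR adjusted p 0.922). Elovl6 stood at 33.0 and 29.4 CPM against 19.2 and 124, and its high value came from few nuclei: 38 of the 49 Elovl6 UMIs of mouse rep129 lay in 2 nuclei, and without them the level was 28.6 CPM. Counted by levels, 5 genes had both mice lower on the high-fat diet (17.9% of all genes did) and 2 had both higher (44.1%).

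**Figure D1:**
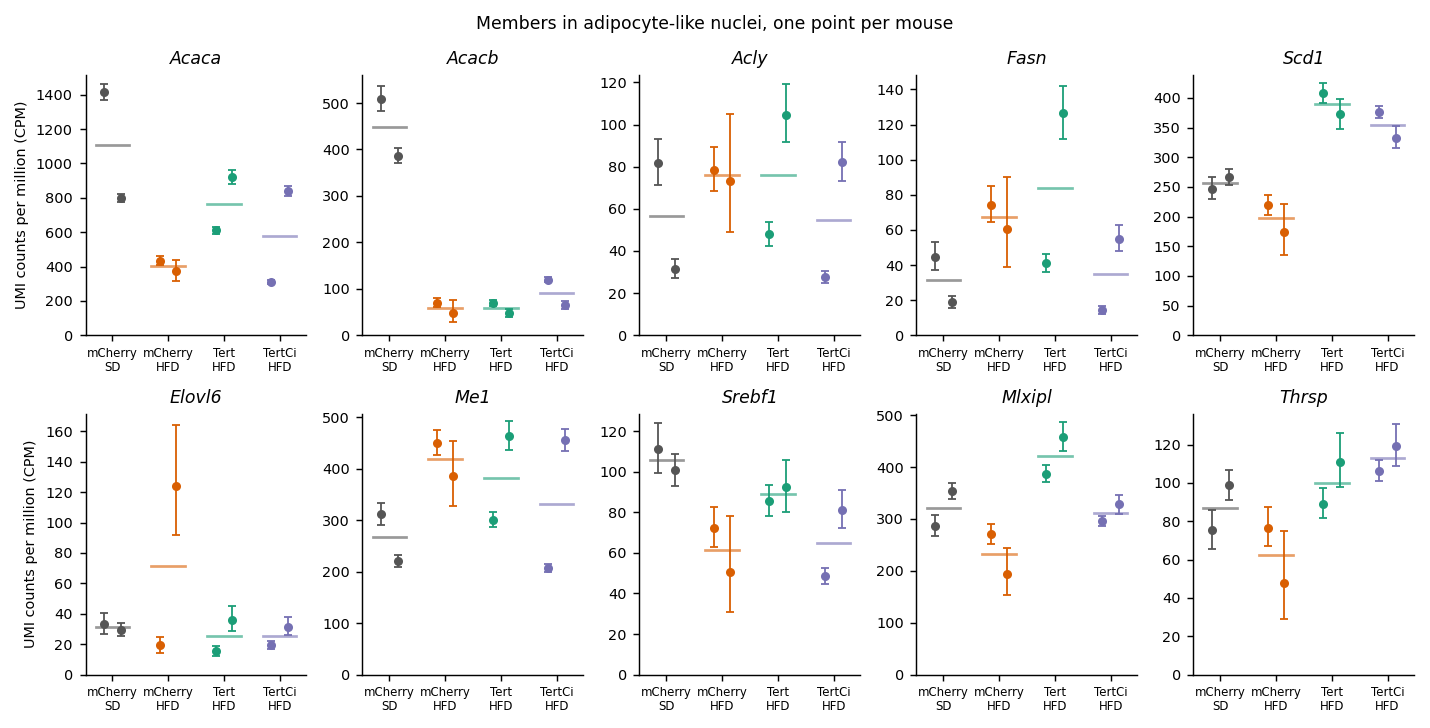
CPM (vertical axes, starting at 0) of the 10 genes in adipocyte-like nuclei, with a point for each of 2 mice per group, exact 95% Poisson intervals that cover counting error only, and a line at the group mean. Acacb is high in the mCherry SD mice alone (509 and 387 CPM), and Scd1 is highest in the Tert HFD and TertCi HFD mice (333 to 408 CPM).

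Other RNA in the class differed along with diet. The summed level of 10 macrophage markers in adipocyte-like nuclei was 663 and 604 CPM in mCherry SD, 904 and 1034 in mCherry HFD, 732 and 488 in Tert HFD, and 522 and 468 in TertCi HFD. That of 9 T and NK cell markers was 8.16 and 6.69, 74.6 and 40.4, 14.7 and 13.1, and 13.6 and 15.5 CPM in the same order. The summed level of the 10 adipocyte markers ran from 7674 (Tert HFD mouse rep136) to 14980 CPM (mouse rep134) with no order by diet. Of the macrophage markers at most 1 was at 0 in a library, of the T and NK cell markers up to 6. RNA of 37 mitochondrial genes, a sign of cytoplasm carried along with nuclei, made up 74.5 and 105 CPM in mCherry SD, 166 and 291 in mCherry HFD, 120 and 242 in Tert HFD, and 110 and 117 in TertCi HFD. The part of this RNA in the differences was not tested. The CPM above are shares of the total of the adipocyte-like class in each library, whereas the fitted differences also use TMM scaling factors. With totals alone the median over all genes shifted by 0.34 for diet, -0.26 for Tert and -0.44 for TertCi on the log2 scale, and calls over all genes became 15.6% higher and 3.11% lower for diet, 0.419% and 3.07% for Tert, and 1.49% and 15.3% for TertCi. On that scaling Acaca and Acacb kept their calls with diet, and Scd1 kept those with Tert and TertCi. The calls of Scd1 and Srebf1 with diet, Mlxipl with Tert and TertCi, and Thrsp with TertCi were lost (edgeR adjusted p 0.237, 0.104, 0.0629, 0.237 and 0.0675).

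The next comparisons set the Tert HFD and the TertCi HFD mice against the mCherry HFD mice. They share these 2 control libraries, so they are not independent of each other or of the diet comparison. Over all genes in adipocyte-like nuclei, few or no calls remained in either comparison without rep128, and far fewer without rep129. The same held for Tert without rep136. A call lost on such a removal is therefore not particular to its gene. In adipocyte-like nuclei Scd1 and Mlxipl rose in both, and Thrsp rose with TertCi. The carboxylase gene Acacb, the most reduced on the high-fat diet, did not pass in either. No gene fell. In Tert HFD 2 of the 10 genes rose, where 1.01% of all genes rose, 2.38% fell and 3.39% were called in either direction. In TertCi HFD 3 of the 10 rose, where 5.75% of all genes rose and 14.3% were called. The medians over the 10 genes were 0.67 and 0.63, against 0.01 and -0.01 over all genes.

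Scd1 stood at 408 and 373 CPM in Tert HFD and 377 and 333 in TertCi HFD, against 219 and 174 in mCherry HFD. All 4 mice with an insert that includes Tert or TertCi lay above both controls, and also above the mCherry SD mice at 247 and 266, a difference that was not tested. The rise was 2.37-fold with Tert (log2 1.25, SE 0.18, edgeR adjusted p 0.0187) and 2.39-fold with TertCi (log2 1.255, SE 0.18, edgeR adjusted p 0.00490). The Tert call was lost without mouse rep128, rep129 or rep136 (adjusted p 0.157, 0.122 and 0.0527), and the TertCi call without mouse rep128 only (adjusted p 0.0613). Mlxipl stood at 388 and 457 CPM in Tert HFD and 296 and 328 in TertCi HFD, against 270 and 195 in mCherry HFD. Again no mouse overlapped with a control. The rise was 2.2-fold with Tert (log2 1.13, SE 0.24, edgeR adjusted p 0.0402) and 1.77-fold with TertCi (log2 0.83, SE 0.24, edgeR adjusted p 0.0449). The Tert call was lost without mouse rep146, rep128, rep129 or rep136, and the TertCi call without mouse rep146, rep128, rep129, rep138 or rep140, where the adjusted p reached 0.215 and 0.172. With classes set per nucleus and in cluster 12 alone both calls were lost (edgeR adjusted p 0.0639 and 0.0521 with Tert, 0.0610 and 0.106 with TertCi). The Tert call was lost with mixed clusters included (0.0547). The TertCi call was lost with at least 1000 UMIs (0.0555) and with libraries thinned to the smallest, where the log2 difference was 0.50 (edgeR adjusted p 0.314).

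Thrsp stood at 89.2 and 111 CPM in Tert HFD and 106 and 119 in TertCi HFD, against 76.6 and 48.0 in mCherry HFD. Both groups lay above the controls. The rise with TertCi was 2.28-fold (log2 1.19, SE 0.28, edgeR adjusted p 0.0224) and was lost without mouse rep128, rep129, rep138 or rep140 (adjusted p up to 0.0998). It was also lost with libraries thinned to the smallest, mixed clusters included, classes set per nucleus and in cluster 12 alone (edgeR adjusted p 0.0953, 0.0561, 0.0679 and 0.191). With Tert the log2 difference was 0.88 (SE 0.28, edgeR adjusted p 0.105). Srebf1 stood at 85.5 and 92.4 CPM in Tert HFD, above both controls at 72.2 and 50.5, without passing (log2 0.75, SE 0.31, edgeR adjusted p 0.189). In TertCi HFD it was split, at 48.5 and 81.4 CPM. Acaca, listed above, gave log2 differences of 1.24 with Tert and 0.95 with TertCi (edgeR adjusted p 0.166 and 0.212). Acacb gave 0.16 with Tert and 0.98 with TertCi (edgeR adjusted p 0.802 and 0.0601). The TertCi interval of Acacb, 0.29 to 1.67, ended below the 3.16 by which the gene fell with diet.

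The 4 remaining enzymes ran from -0.87 (Elovl6 with Tert) to 0.60 (Fasn with Tert) on the log2 scale, with edgeR adjusted p between 0.541 and 0.967. Both of these signs turned on 1 mouse, since Elovl6 was at 0.73 without rep129 and Fasn at -0.60 without rep136. Fasn stood at 41.0 and 126 CPM in Tert HFD and 14.3 and 55.0 in TertCi HFD. Acly stood at 47.9 and 105 CPM and at 27.4 and 82.2, and Me1 at 301 and 463 and at 207 and 456. In each of these 6 pairs the second mouse was more than 1.5-fold above the first. By levels, 5 genes had both Tert HFD mice above both controls (13.7% of all genes) and 0 had both below (37.2%). For TertCi HFD these counts were 3 (12.2%) and 1 (50.2%), the latter being Fasn.

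**Figure D2:**
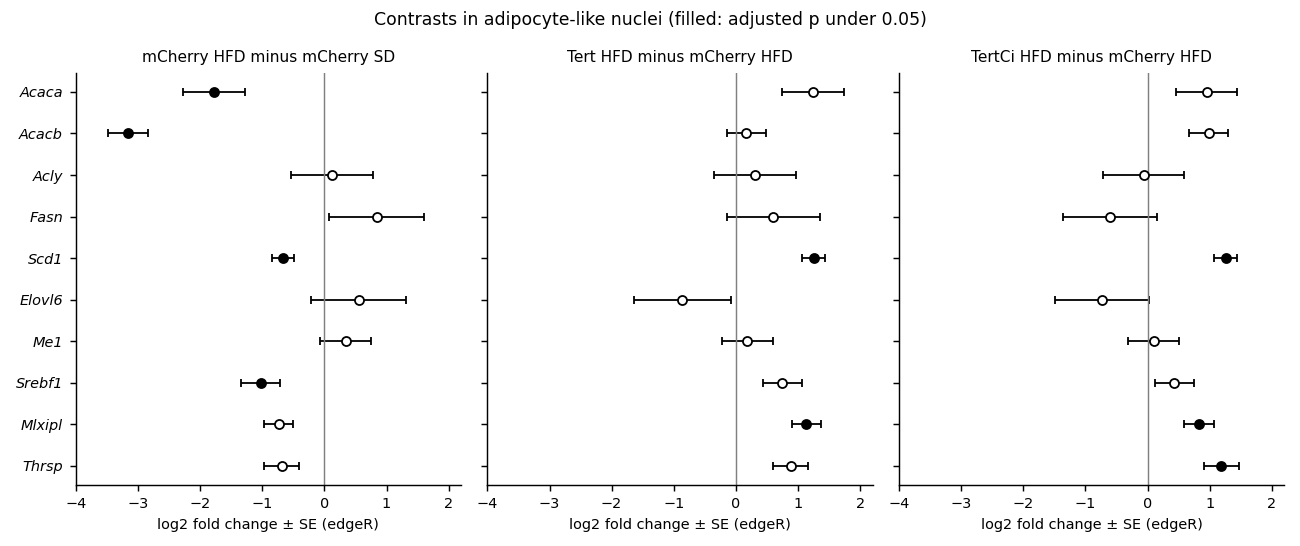
Log2 fold change ± SE by edgeR (horizontal axes) of the 10 genes in adipocyte-like nuclei for 3 comparisons that share the mCherry HFD libraries, 2 mice per group; filled points had an adjusted p under 0.05. Acacb lies at -3.16 in the diet panel, and Scd1 lies near 1.25 in both other panels.

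Set directly against each other, Tert HFD and TertCi HFD gave no call among the 10 genes, nor among the 14068 genes tested in adipocyte-like nuclei (percentage called 0, smallest adjusted p among the 10 genes 0.826). DESeq2 called 2 of all genes, and 819 genes had an unadjusted edgeR p under 0.05. For Scd1 the log2 difference was -0.01, with a 95% interval of -0.39 to 0.38. For Mlxipl it was 0.31 (-0.21 to 0.82) and for Thrsp -0.31 (-0.88 to 0.26). Fasn had the widest interval, -0.39 to 2.81 around 1.21. Acacb was the only one of the 10 genes with an unadjusted p under 0.05, at -0.82 (-1.46 to -0.18, edgeR adjusted p 0.826), and its groups overlapped. By levels, Srebf1 and Mlxipl had both Tert HFD mice above both TertCi HFD mice, as had 27.3% of all genes, and none of the 10 genes had both below, as had 5.93%. A missed threshold does not show that the groups act alike.

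In each of the 4 groups the median difference between the 2 mice was larger over these genes than over all genes, though by little in mCherry HFD. The split described next was noticed after the values were seen. On a TMM-scaled log2 scale with an offset of 1 CPM, the median absolute difference between mice of a group over the 10 genes was 0.41 in each mCherry group, 0.78 with Tert and 0.81 with TertCi. Over all genes it was 0.29, 0.40, 0.36 and 0.27. Mouse rep136 exceeded mouse rep134 in 9 of the 10 genes and mouse rep140 exceeded rep138 in 8, while mouse rep144 exceeded rep146 in 8 and mouse rep128 exceeded rep129 in 9. Acly differed by 1.48, 0.11, -1.44 and -1.64 between the mice of the 4 groups, in the order standard diet, mCherry HFD, Tert HFD, TertCi HFD, the lower-numbered mouse over the other. Fasn differed by 1.35, 0.30, -1.93 and -1.97, and Acaca by 0.97, 0.24, -0.92 and -1.53. These 3 enzyme genes split widely in every group but mCherry HFD, where they lay below the median over all genes. Elovl6 had the widest split of the 10 genes, in mCherry HFD, with 0.30, -2.61, -1.52 and -0.76 in the 4 groups. Me1 differed by 0.63, 0.23, -0.95 and -1.23. Scd1 differed by 0.03, 0.34, -0.20 and 0.09, Mlxipl by -0.16, 0.49, -0.57 and -0.24, and Thrsp by -0.25, 0.68, -0.65 and -0.26. Depth differed too: the median adipocyte-like nucleus held 9640 UMIs in mouse rep134 and 2080 in mouse rep136, but 6065 and 5611 in mice rep138 and rep140. Its part in the spread was not tested.

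**Figure D3:**
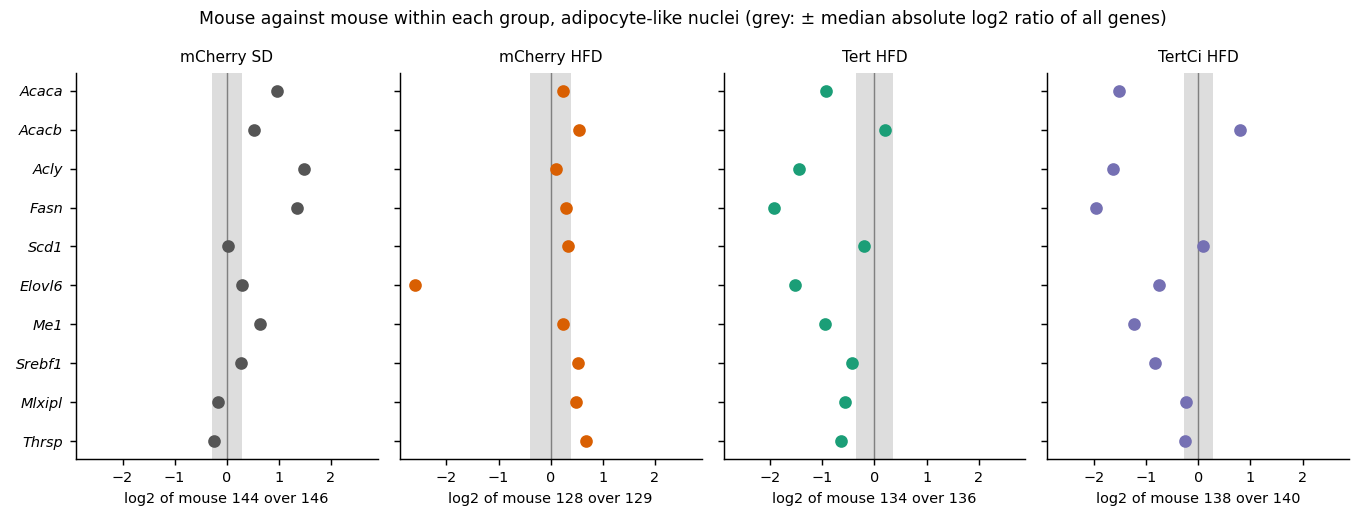
Log2 ratio between the 2 mice of each group (horizontal axes, lower-numbered mouse over the other) for the 10 genes in adipocyte-like nuclei; the grey band spans plus and minus the median absolute log2 ratio of all genes tested. Fasn reaches -1.93 in Tert HFD and -1.97 in TertCi HFD, whereas Scd1 stays between -0.20 and 0.34 in all 4 groups.

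Other genes of the pathway were grouped in 6 lists of 68 genes, of which 64 could be tested in adipocyte-like nuclei. With diet 4 were higher and 8 lower (12.7% and 7.93% of all genes), with a median log2 difference of -0.13 against 0.03 over all genes. With totals alone 6 were higher and 3 lower (15.6% and 3.11% of all genes). In the list on insulin and AMPK signalling, 5 of 13 genes fell and 0 rose. Pik3r1, the regulatory subunit of the kinase through which insulin signals, stood at 1675 and 1588 CPM in mCherry SD and 419 and 377 in mCherry HFD (log2 -2.34, SE 0.22, edgeR adjusted p 0.000387). Irs1, a substrate of the insulin receptor, stood at 361 and 472 against 166 and 200 CPM (log2 -1.51, SE 0.18, edgeR adjusted p 0.00129). Both groups were far apart for these genes. The others were the AMPK subunit genes Prkaa2 (-1.09) and Prkaa1 (-0.90) and Stk11 (-1.14), which encodes a kinase that activates AMPK. Prkaa1 is named outside the naming rule, after its value was seen. The call of Stk11 was lost without any 1 of the 4 mice, that of Prkaa1 without rep144, rep146 or rep128, and that of Prkaa2 without rep144 or rep128, with edgeR adjusted p up to 0.157, 0.282 and 0.263.

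Among 14 regulators around SREBP-1c and ChREBP, 1 rose and 1 fell with diet. Insig1, which holds SREBP precursors in the endoplasmic reticulum and is itself a known SREBP target, stood at 12.4 and 15.2 CPM in mCherry SD and 152 and 91.0 in mCherry HFD (log2 2.88, SE 0.29, edgeR adjusted p 0.000560). It stood at 61.2 and 41.4 CPM in Tert HFD and 33.8 and 44.1 in TertCi HFD, between the mCherry groups. Rxra, a nuclear receptor that pairs with LXR and PPARs, fell (log2 -1.18, edgeR adjusted p 0.0217, up to 0.138 without rep144, rep128 or rep129). Insig1 thus moved opposite to Srebf1 with diet. Its call held without each library in turn, as did those of Pik3r1 and Irs1, and no other of the 12 calls did.

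Of 8 tested elongases and desaturases beyond the 10 genes, Fads2 and Scd2 rose with diet. Fads2, the first desaturase of polyunsaturated fatty acids, stood at 1.07 and 7.02 CPM in mCherry SD, 50.6 and 48.0 in mCherry HFD, 11.6 and 0.871 in Tert HFD, and 10.4 and 2.67 in TertCi HFD. The mCherry HFD mice alone were high (log2 3.16, SE 0.82, edgeR adjusted p 0.0243). This call was not made by DESeq2 (adjusted p 0.071) and was lost without rep144, rep128 or rep129 (edgeR adjusted p up to 0.202). Scd2, a paralog of Scd1 whose reads can be hard to separate from it, rose by 2.13 (edgeR adjusted p 0.0370) while Scd1 fell. In the supply list of 12 genes, the citrate carrier gene Slc25a1 rose (log2 1.64, edgeR adjusted p 0.0347) and Pcx, which makes oxaloacetate from pyruvate, fell (log2 -0.98, edgeR adjusted p 0.0305). None of the 7 genes for cofactor attachment, malonyl-CoA turnover and mitochondrial fatty acid synthesis was called. Of 10 adipocyte identity genes, 6 of which also marked the class, Pparg fell (log2 -1.20, edgeR adjusted p 0.0307). The calls of Scd2 and Slc25a1 were lost without any 1 of the 4 mice (edgeR adjusted p up to 0.303 and 0.537), that of Pcx without rep144, rep146 or rep129 (up to 0.125) and that of Pparg without rep144, rep128 or rep129 (up to 0.162).

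Against mCherry HFD, 0 of the 64 list genes were called in Tert HFD by edgeR, against 3.39% of all genes. Of the 64, 12 had an unadjusted edgeR p under 0.05, as had 3292 of all 14068 genes. DESeq2 called 2 of the 64 and 669 of all 14068. In TertCi HFD 4 rose and 2 fell (5.75% and 8.59% of all genes). With totals alone 0 rose and 4 fell (1.49% and 15.3% of all genes). Insig1 fell by 1.28 on the log2 scale (edgeR adjusted p 0.0153) and Slc25a1 fell by 1.61 (edgeR adjusted p 0.0442). Rxra (1.25), Irs1 (0.83), Prkaa2 (1.06) and the hormone-sensitive lipase gene Lipe (0.73) rose. The diet differences of the first 5 genes are given above, and the comparisons share the mCherry HFD libraries. All 6 calls were lost without rep128 or without rep138. Those of Irs1, Slc25a1, Rxra, Prkaa2 and Lipe were also lost without rep129, those of Rxra, Prkaa2 and Lipe without rep140, that of Slc25a1 without rep144 or rep146, and that of Lipe without rep146. The largest edgeR adjusted p over these removals ran from 0.15 (Rxra) to 0.564 (Slc25a1), and DESeq2 did not call Slc25a1 (adjusted p 0.0741). Tert HFD against TertCi HFD gave 0 calls in the lists.

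**Figure D4:**
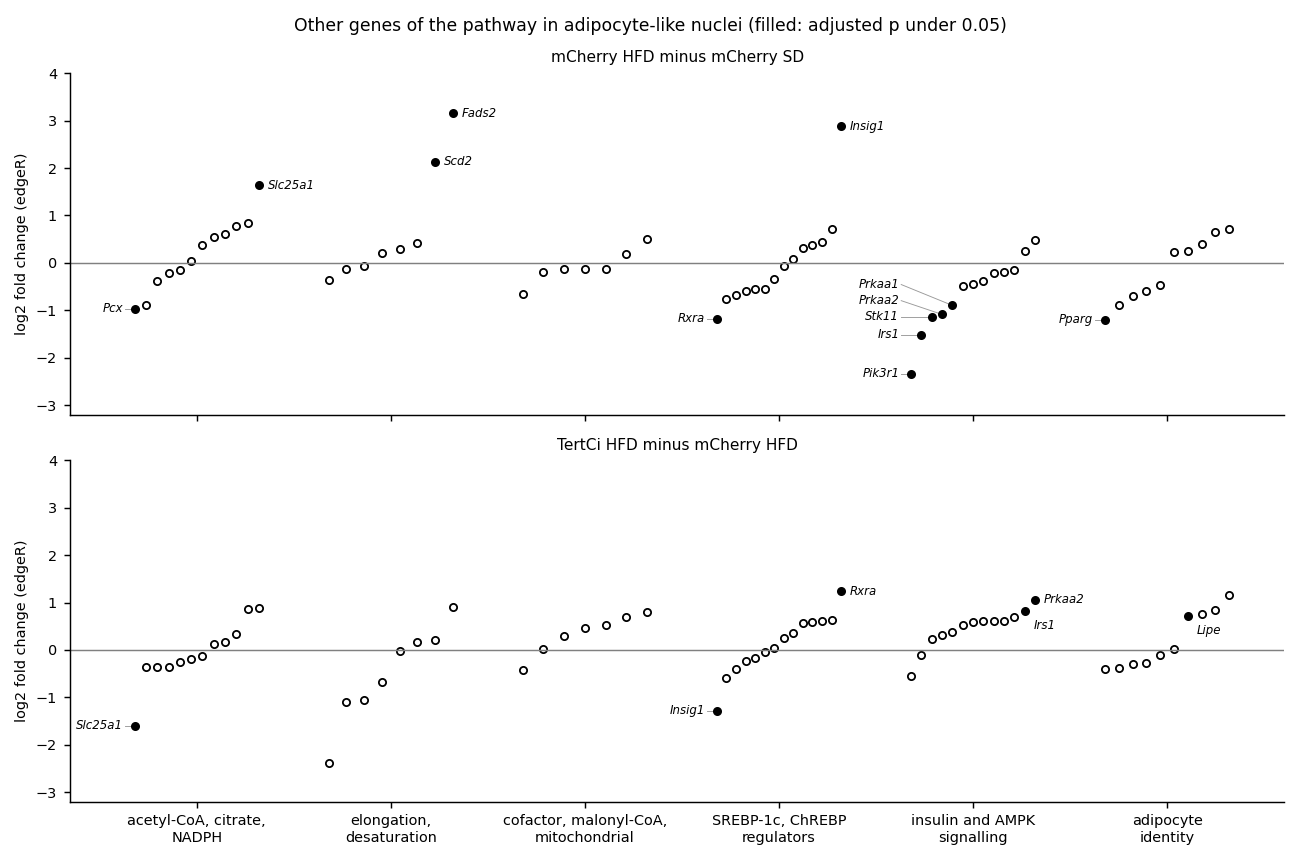
Log2 fold change by edgeR (vertical axes) of 64 other pathway genes in 6 lists, in adipocyte-like nuclei, for diet (upper panel) and TertCi (lower panel); filled, named points had an adjusted p under 0.05. Insig1 lies at 2.88 with diet and -1.28 with TertCi, and all 5 called genes of the insulin and AMPK list lie below 0 with diet.

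The adipocyte-like class was made of different clusters in different groups. Cluster 11, which has Acacb among its leading genes, held 53.4% and 63.4% of the class in mCherry SD, 0% in mCherry HFD and 4.41% to 5.92% in the other libraries. Cluster 16 held 58.0% and 38.6% of the class in mCherry HFD, 79.1% and 63.7% in TertCi HFD and 60.9% in Tert HFD mouse rep134. In mouse rep136 cluster 20, with Fasn and Rn18s-rs5 among its leading genes, held 56.6%. Of the 532 nuclei of cluster 20, 488 were from rep136, and its median nucleus held 1630 UMIs. Since clustering read these genes, the makeup is a description. When clusters were made without the 10 genes and the lists, the diet difference of Acacb was -3.60 (edgeR adjusted p 0.000233), and within cluster 16 alone, an alternative chosen after seeing the data, it was -1.96 (edgeR adjusted p 0.0217). Within cluster 16 alone Scd1 rose by 1.16 with Tert and 1.09 with TertCi (edgeR adjusted p 0.0214 and 0.00949). The calls of Scd1 and Srebf1 with diet and of Mlxipl with Tert and TertCi were lost there (edgeR adjusted p 0.609, 0.061, 0.0666 and 0.162).

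Counted per nucleus, with each nucleus thinned to 1000 UMIs, the median adipocyte-like nucleus held 3 and 2 UMIs of the 10 genes together in mCherry SD, 1 and 1 in mCherry HFD, 2 and 2 in Tert HFD, and 1 and 2 in TertCi HFD. Nuclei with none of them made up 9.93% and 12.9%, 27.3% and 36.8%, 18.2% and 15.8%, and 25.4% and 13.9% in that order. Thinning left out 3 nuclei, all of mouse rep136. An Acacb UMI was present in 37.04% (exact binomial 95% interval 33.1 to 41.1) and 26.6% (23.6 to 29.7) of thinned nuclei in mCherry SD and in 8.52% (4.85 to 13.7) and 5.26% (1.10 to 14.6) in mCherry HFD. In Tert HFD it was 6.07% and 5.59%, and in TertCi HFD 10.7% and 5.31%. Unthinned shares were 78.5%, 75.0%, 50%, 26.3%, 42.1%, 11.1%, 46.2% and 29.8% over the 8 libraries. Macrophage-like nuclei, where the source of Acacb UMIs was not tested, had one in 2.15% and 4.64% of thinned nuclei in mCherry SD and in at most 0.546% in the other libraries; their median nucleus held 3025 and 4160 UMIs in mCherry SD, against 3766 and 5752 for the adipocyte-like. At 1000 UMIs per nucleus this share follows largely from the pooled level of the class. It restates the lower level of Acacb on the high-fat diet and cannot tell fewer nuclei with Acacb RNA from less RNA per nucleus.

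In other classes most of these genes were at lower levels. Progenitor-like nuclei, the precursors of fat cells by their markers, had 583 and 573 CPM of the 10 genes together in mCherry SD and 357 and 383 in mCherry HFD, against 1532 to 3118 in the adipocyte-like nuclei of these 4 libraries. With diet 5 genes fell and 0 rose in progenitor-like nuclei (4.11% of 12000 genes fell, 11.8% were called). Acacb went from 37.1 and 29.1 to 7.78 and 6.84 CPM (log2 -2.33, SE 0.35, edgeR adjusted p 0.00238), a call that held without each library. Mlxipl went from 12.9 and 29.1 to 1.51 and 2.49 CPM (log2 -3.85, SE 0.87, edgeR adjusted p 0.0162). Scd1 (-1.53), Thrsp (-2.55) and Acaca (-0.93) fell too. The calls of Mlxipl and Scd1 were lost without rep146 or rep128, that of Acaca without rep144, rep128 or rep129, and that of Thrsp without any 1 of the 4 mice (edgeR adjusted p up to 0.185, 0.0968, 0.17 and 0.194). Cluster 9 held most progenitor-like nuclei in mCherry HFD and clusters 8 and 6 elsewhere.

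In Tert HFD 2 genes rose in progenitor-like nuclei (2.9% of all genes rose, 7.71% fell and 10.6% were called): Mlxipl, at 7.69 and 40.3 CPM (log2 3.71, SE 0.82, edgeR adjusted p 0.0147), and Scd1, at 43.0 and 49.3 CPM against 20.4 and 29.2 (log2 1.10, SE 0.27, edgeR adjusted p 0.0236). In TertCi HFD 5 rose (6.43% rose, 19.2% were called): Mlxipl (3.18), Thrsp (1.91), Acacb (1.21), Scd1 (0.85) and Me1 (0.70). All these calls were lost without mouse rep128. That of Scd1 with Tert was also lost without rep136. With TertCi, those of Scd1, Acacb and Thrsp were lost without rep129 or rep138, that of Me1 without rep129 or rep140, and those of Mlxipl and Thrsp without rep140. The largest edgeR adjusted p over the removals ran from 0.199 (Me1 with TertCi) to 0.425 (Scd1 with TertCi), and DESeq2 called 1 gene with TertCi. A cluster of 37 nuclei led by liver genes such as Alb, 32 of them from mouse rep128, was left out of the class after its leading genes were seen. With it, 3 genes were called with diet, 1 with Tert and 0 with TertCi. Adipocyte marker RNA moved along: its summed level in progenitor-like nuclei was 690 and 1312 CPM in mCherry SD, 380 and 426 in mCherry HFD, 765 and 837 in Tert HFD, and 1034 and 754 in TertCi HFD. All 10 markers were detected in every library, and their part in the result was not tested.

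Macrophage-like nuclei had 209 to 427 CPM of the 10 genes together. With diet 5 genes fell and 0 rose (9.09% of 13222 genes fell, 20.4% were called). Mlxipl went from 44.8 and 43.8 to 1.08 and 3.41 CPM (log2 -4.80, SE 0.81, edgeR adjusted p 0.00164) and Acacb from 19.2 and 39.6 to 1.78 and 2.92 CPM (log2 -4.0, SE 0.68, edgeR adjusted p 0.00165). Thrsp (-3.34), Scd1 (-1.78) and Srebf1 (-1.15) also fell, and all 5 calls were lost without mouse rep146, that of Srebf1 also without rep144, rep128 or rep129 (edgeR adjusted p up to 0.441 for Thrsp). Mlxipl, Thrsp and Scd1 rose with Tert (log2 3.25, 1.94 and 1.18) and with TertCi (2.86, 2.63 and 1.20), where 7.18% and 10.3% of all genes rose and 18.9% and 25.6% were called. All 6 of these calls were lost without mouse rep128, the 3 with TertCi also without rep138, and that of Thrsp with Tert also without rep144, rep146, rep129, rep136 or rep138 (edgeR adjusted p up to 0.219). The summed adipocyte markers in macrophage-like nuclei were 1192 and 1675 CPM in mCherry SD, 967 and 1064 in mCherry HFD, 1196 and 1288 in Tert HFD, and 1553 and 1390 in TertCi HFD. Plin1, which coats lipid droplets and is a defining marker of fat cells, was at 22.4 and 49.5, 5.17 and 12.4, 22.2 and 19.3, and 26.7 and 19.0 CPM. Adipoq, which encodes the fat cell hormone adiponectin, was at 3.2 and 12.7, 4.51 and 8.03, 8.89 and 7.14, and 14.7 and 9.02 CPM. Its mCherry groups overlapped, but the value of rep144 rests on 1 UMI, with an exact Poisson interval of 0.0809 to 17.8 CPM. Of the adipocyte identity genes, Cidec (log2 -2.753), Plin1 (-2.411) and Lipe (-1.865) were called lower with diet in this class. Lpl (2.514), Pparg (1.044) and Cd36 (0.843) were called higher. The calls of Cidec, Plin1, Lipe and Pparg were lost without rep146, and those of Pparg and Cd36 without rep144. Cluster 17 held most macrophage-like nuclei of mCherry SD, and clusters 25, 27 and 19 most of mCherry HFD. In rep134, rep138 and rep140 cluster 17 held the largest number (512, 629 and 141). In rep136 cluster 24 held 442 and cluster 17 held 307. The part of this makeup in the differences was not tested. Whether the UMIs of the 10 genes in this class come from the nuclei themselves was not tested either.

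Free RNA was read from droplets with at least 10 UMIs and fewer than 0.2 of the library's nucleus threshold. That threshold ran from 987 UMIs (rep136) to 4705 (rep128), so the pools differ between libraries, and they can include nuclei of low depth. In these droplets the 10 genes together made up 1950 and 1948 CPM in mCherry SD and 574 and 538 in mCherry HFD. They made up 1098 and 1755 CPM in Tert HFD and 1147 and 1878 in TertCi HFD. Acacb there was at 235 and 216, 13.1 and 15.1, 26.4 and 31.9, and 72.0 and 36.2 CPM. Mlxipl was at 93.3 and 230, 16.3 and 33.5, 54.0 and 126, and 101 and 148 CPM. In such mixtures fewer adipocytes and less RNA per adipocyte cannot be told apart: adipocyte-like nuclei made up 2.37% and 1.98% of nuclei in mCherry HFD and 13.7% to 30.3% in the other libraries. Both genes were lower in mCherry HFD than in mCherry SD in free RNA as in the macrophage-like and progenitor-like nuclei.

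Mural-like nuclei, of the walls of small vessels, numbered 24 to 125 per library, and all 10 genes but Fasn and Elovl6 could be tested in them. With diet 7 of these 8 fell and 0 rose (of 6442 genes 6.09% fell, 6.67% rose and 12.8% were called). Mlxipl stood at 182 and 243 CPM in mCherry SD and 9.58 and 0 in mCherry HFD (log2 -4.91, SE 0.56, edgeR adjusted p 4.61e-05). The count of 0 was that of rep129, where 3 UMIs would make 16.1 CPM. Acacb (-3.91), Scd1 (-2.96), Acaca (-2.48), Me1 (-2.45), Thrsp (-2.39) and Srebf1 (-1.996) fell too. The calls of Thrsp and Srebf1 were lost without rep146 or rep128 and under DESeq2 (adjusted p 0.0527 and 0.115), and the other 5 held without each library. Over the removals Mlxipl ran from -9.32 to -4.63 on the log2 scale. With Tert 3 genes rose (3.31% of all genes rose, 6.47% were called): Mlxipl (4.08), Scd1 (3.18) and Me1 (1.63). With TertCi 5 rose (4.32% rose, 5.81% fell and 10.1% were called): Mlxipl (3.75), Scd1 (2.73), Me1 (1.73), Acacb (1.71) and Acaca (1.51). Both Mlxipl calls and that of Scd1 with Tert held without each library. That of Me1 with Tert was lost without rep128, rep129, rep134 or rep136 and under DESeq2 (adjusted p 0.0851). With TertCi, those of Scd1, Me1, Acacb and Acaca were lost without rep128, the last 3 also without rep129, and Me1 and Acaca without rep140 and Acacb without rep138 (edgeR adjusted p up to 0.651) and under DESeq2 (adjusted p 0.172). Adipocyte marker RNA in mural-like nuclei summed to 5780 and 9340 CPM in mCherry SD, 1743 and 1480 in mCherry HFD, 6988 and 3547 in Tert HFD, and 4763 and 5739 in TertCi HFD, with all 10 markers detected in every library. Its part in the result was not tested.

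Mesothelial-like nuclei, of the layer that covers abdominal organs, numbered 46 to 365 per library, and all 10 genes but Fasn could be tested. With diet 5 of these 9 fell and 0 rose (of 11295 genes 4.98% fell, 9.46% rose and 14.4% were called): Mlxipl (-2.32), Acacb (-2.21), Srebf1 (-1.78), Scd1 (-1.16) and Acaca (-0.95). The Srebf1 call alone held without each library. All others were lost without rep144, with Scd1 and Acaca also lost without rep128 and Acaca without rep129, and DESeq2 called Mlxipl and Acacb only. With Tert 0 genes were called by edgeR or DESeq2, 1 had an unadjusted edgeR p under 0.05, and 5.02% of all genes were called, 3.92% lower. With TertCi Scd1 alone rose (5.21% of all genes rose, 7.9% fell and 13.1% were called), with a log2 difference of 1.23 (SE 0.30, edgeR adjusted p 0.0144), a call lost without rep128 or rep138 and under DESeq2 (adjusted p 0.248). Adipocyte marker RNA summed to 1202 and 1547 CPM in mCherry SD, 832.5 and 973 in mCherry HFD, 1057 and 739 in Tert HFD, and 1603 and 1179 in TertCi HFD, with up to 2 of 10 markers at 0 in a library. Its part was not tested. Endothelial-like nuclei reached 20 in 1 mCherry SD library only, so their diet difference is not given. Scd1 rose in them with Tert (log2 1.72, SE 0.37, edgeR adjusted p 0.00738) and Acacb with TertCi (1.39, SE 0.39, edgeR adjusted p 0.0206). No alternatives were fitted for this class, and its share of all genes called is not given here. Adipocyte marker RNA summed to 1738 and 1598 CPM in mCherry HFD, 2440 and 2252 in Tert HFD, and 2909 and 2891 in TertCi HFD. Its part was not tested. Levels are in the plot by class.

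**Figure D5:**
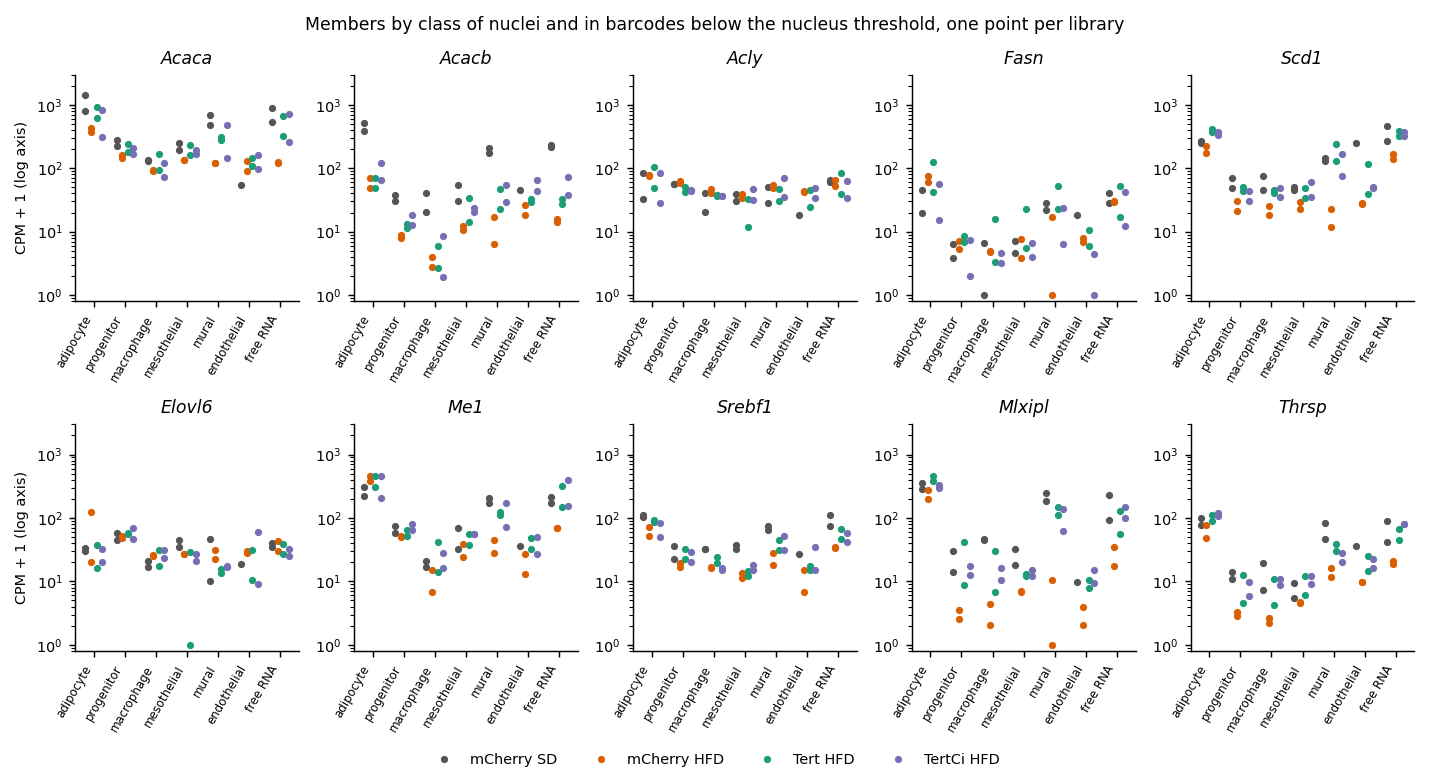
Level of each gene as CPM + 1 (vertical axes, log scale) in 6 classes of nuclei and in droplets under 0.2 of the nucleus threshold (free RNA). Each library that had at least 20 nuclei of the class has a point, coloured by group. Mlxipl of the mCherry HFD libraries (195 and 270 CPM in adipocyte-like nuclei) lies at 1.08 and 3.41 CPM in macrophage-like nuclei, and Acly has medians between 32.2 and 75.8 CPM in all 6 classes.

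Over the 8 libraries, genes whose adipocyte-like levels followed the mean of the 10 genes closely were Galnt2, Lrrc8c, Ptcd3 and Phtf2, with Pearson r of 0.979, 0.976, 0.973 and 0.971 on the TMM-scaled log2 scale. The 8 points share group, depth and scaling, so these values are descriptive. Among the 10 genes, each set against the mean of the other 9, Acaca (0.864) and Srebf1 (0.8) followed best, and Acacb (0.0645) and Elovl6 (-0.0564) did not follow. Reads of overlapping genes could affect some values, which was not measured. Acaca, Acly, Elovl6, Me1 and Srebf1 overlap an annotated gene on the same strand, for Acly and Srebf1 microRNA genes only. Acaca, Acacb, Elovl6, Me1, Srebf1 (Rai1) and Mlxipl overlap one on the opposite strand, while Fasn, Scd1 and Thrsp have none.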

How the data were processed

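Single-nucleus RNA-seq libraries of 8 mice were read from the deposited count matrices, which hold UMI counts per gene and barcode. Per the file headers they were made with Cell Ranger 7.1.0, whereas the submitters' processing notes name version 5.0.1, with bcl2fastq 2.20.0 and build mm39. How intronic and antisense reads were counted is not given in the sources used here, and the labels speak of preparation in batches of 2 without recording them. Barcodes with at least 500 UMIs, and at least 0.1 of the 99th percentile of the top 5000, 300 genes and at most 5% mitochondrial UMIs were kept as nuclei. Doublet scores removed 0.8% per 1000 nuclei (1.59% to 6.35% of a library). Clusters came from scanpy 1.11.5 (2000 variable genes, 30 components, 15 neighbours, resolution 1) and were named by marker genes. A rule that leaves a cluster led by the liver gene Alb unnamed was chosen after seeing the data. UMIs were summed per library and class (at least 20 nuclei) and tested with edgeR 4.0.16 (quasi-likelihood, TMM, all 4 groups in 1 fit, Benjamini-Hochberg over all genes of a class and comparison), with DESeq2 1.42.0 as an alternative. The scripts were tested on simulated data. Named were all 10 genes, the up to 4 called genes of each list with the largest change, and the 5 genes most like the mean, of which 1 is not reported here. Intervals on CPM and shares cover counting error only. The 10 genes and the lists were chosen with earlier results of these data known.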

Additional observations from a re-analysis of the deposited data

Results flagged for a closer look

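Me1, the malic enzyme gene, differed in sign between classes in the diet comparison. In adipocyte-like nuclei both mCherry HFD mice were above both mCherry SD mice (means 418.6 and 266.4 CPM, log2 0.34). In macrophage-like nuclei both were below (10.1 and 17.9 CPM, log2 -1.11), as they were in progenitor-like nuclei (50.3 and 65.4 CPM, log2 -0.60) and in mural-like nuclei (35.5 and 190.6 CPM, log2 -2.45). The mural-like difference passed the edgeR test (adjusted p 0.00176), the other 3 did not (0.600, 0.335 and 0.0843), and the difference between the classes was not tested. In adipocyte-like nuclei the difference was -0.14 with clusters made without the 10 genes and lists and -0.22 with doublets kept, so its sign in this class changed with these settings.

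The levels of Srebf1 lay on opposite sides between classes with TertCi. In progenitor-like nuclei both TertCi HFD mice were above both mCherry HFD mice (means 23.4 and 17.1 CPM, log2 0.65), as in mural-like (40.2 and 22.1 CPM, log2 1.14) and mesothelial-like nuclei (15.7 and 11.3 CPM, log2 0.73). In macrophage-like nuclei both were below (14.7 and 15.5 CPM), where the TMM-scaled log2 difference was 0.036. The fitted differences thus had the same sign, and none passed the edgeR test (adjusted p 0.185, 0.181, 0.269 and 0.987). In Tert HFD against TertCi HFD, both Tert HFD mice were above in adipocyte-like (88.9 and 64.9 CPM, log2 0.32) and macrophage-like nuclei (21.01 and 14.7 CPM, log2 0.49) and below in mesothelial-like nuclei (12.4 and 15.7 CPM, log2 -0.44), and again none passed (0.921, 1.0 and 0.970). The differences between classes were not tested.

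Elovl6 was higher in both mCherry HFD mice than in both mCherry SD mice in macrophage-like nuclei (24.7 and 17.9 CPM, log2 0.29) and lower in mesothelial-like nuclei (26.0 and 38.8 CPM, log2 -0.79). Neither passed the edgeR test (adjusted p 0.696 and 0.135), and the difference was not tested.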

How the results depend on the processing

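Over 22 alternatives for each of the 40 differences in adipocyte-like nuclei (10 genes, 4 comparisons), 733 values kept direction and side of the threshold, 55 lost a call, 32 gained a call and 60 changed sign. None of the 60 belonged to a called difference. The alternatives using clusters 16, 12 or 20 or the liver-gene cluster, and Elovl6 without its 2 top nuclei in each library (28.6 CPM in mouse rep129 against 123.8), were chosen after seeing the data. With 1 library left out of a group, the other is assumed to vary like the other groups. Over all genes in adipocyte-like nuclei, fewer were called with diet without any 1 of the 4 mice compared. Such losses are thus not particular to the 10 genes. With 57 nuclei in mouse rep129, depth limits every comparison that uses mCherry HFD. Beyond the number of mice and nuclei left, the cause of these changes was not tested. No paired analysis was possible because the replicate numbers, those of the mice, differ between the groups.

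Leaving out each library in turn gave, among the 10 genes in adipocyte-like nuclei, 1 to 6 calls with diet (4 with all), 0 to 3 with Tert (2) and 0 to 4 with TertCi (3). Among the 64 list genes it gave 3 to 14 with diet (12), 0 to 3 with Tert (0) and 0 to 12 with TertCi (6). In progenitor-like nuclei it gave 1 to 6 with diet (5), 0 to 4 with Tert (2) and 0 to 6 with TertCi (5), and in macrophage-like nuclei 0 to 6 with diet (5), 0 to 6 with Tert (3) and 0 to 5 with TertCi (3). Without the filter on low counts, calls among the 10 genes were 5 with Tert, 5 with TertCi and 2 for Tert against TertCi, those among list genes were 19 with diet, 11 with Tert and 19 with TertCi, and those among the 10 genes in other classes were 4 with Tert in progenitor-like and 5 with Tert and 5 with TertCi in macrophage-like nuclei. With total counts only they were 2 with diet, 1 with Tert and 1 with TertCi, and 1 list gene with Tert. DESeq2 called 2 list genes with Tert and 1 of the 10 genes with TertCi in progenitor-like nuclei. Mixed clusters gave 2 with diet and 1 with Tert, classes per nucleus 1 with Tert and 1 with TertCi, doublets kept 4 with Tert and 5 with TertCi, and thinning to the smallest library 1 with TertCi. Cluster 16 gave 2 with diet and 1 with Tert, and cluster 12 gave 1 with diet, 1 with Tert and 1 with TertCi. The liver-gene cluster gave 3, 1 and 0 in progenitor-like nuclei. Calls over all genes in adipocyte-like nuclei changed with these settings and removals too, so the counts do not describe the 10 genes or lists alone. Without the filter 4235 of 30079 genes were called with diet, 1946 with Tert, 3447 with TertCi and 103 for Tert against TertCi. The main fit called 2898, 477, 2017 and 0 of 14068. With doublets kept 1881 of 15554 were called with Tert and 4130 with TertCi. Alternatives in mural-like and mesothelial-like nuclei were added after seeing the data. Leaving out each library gave, in mural-like nuclei, 5 to 7 with diet (7), 2 to 4 with Tert (3) and 1 to 5 with TertCi (5), and in mesothelial-like nuclei 1 to 6 with diet (5), 0 with Tert (0) and 0 to 2 with TertCi (1). In mesothelial-like nuclei DESeq2 gave 2 with diet and 0 with TertCi, and no filter 2 with TertCi.

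The differences of single genes that changed sign, in log2, were these, with the range over the removal of each library where that changed the sign. With diet, Acly was -0.51 to 0.98 over the removals (sign changed without rep146), -0.18 with clusters made without the 10 genes and lists, -0.0029 with mixed clusters, -0.22 with doublets and -0.56 in cluster 16. Elovl6 was -1.05 to 1.65 over the removals (sign changed without rep129) and -0.68 in cluster 16. Me1 was -0.14 with clusters made without the 10 genes and lists and -0.22 with doublets. With Tert, Acacb was -0.091 with total counts, -0.30 thinned and -0.17 in cluster 16. Acly was -0.52 to 0.93 over the removals (sign changed without rep136), -0.033 with total counts and -0.18 in cluster 12. Fasn was -0.60 to 1.34 over the removals (sign changed without rep136). Elovl6 was -1.97 to 0.73 over the removals (sign changed without rep129) and 0.51 in cluster 16. Me1 was -0.32 to 0.62 over the removals (sign changed without rep136), -0.15 with total counts and -0.0063 in cluster 12. With TertCi, Acly was -1.06 to 0.62 over the removals (sign changed without rep128 or rep138), 0.054 without the filter, 0.10 thinned, 0.25 with clusters made without the 10 genes and lists, 0.041 with mixed clusters and 0.30 with doublets. Fasn was -1.86 to 0.18 over the removals (sign changed without rep138). Elovl6 was -1.83 to 0.86 over the removals (sign changed without rep129) and 0.62 in cluster 16. Me1 was -0.60 to 0.63 over the removals (sign changed without rep140), -0.36 with total counts, -0.10 thinned, -0.066 at 1000 UMIs and -0.34 in cluster 16. Srebf1 was -0.01 with total counts. For Tert against TertCi, Acaca was -0.29 to 1.25 over the removals (sign changed without rep136 or rep138). Acly was -0.50 to 1.40 over the removals (sign changed without rep136 or rep138) and -0.076 in cluster 12. Fasn was -0.034 to 2.50 over the removals (sign changed without rep136). Scd1 was -0.12 to 0.088 over the removals (sign changed without rep134 or rep138), 0.14 with total counts, 0.0032 with only the groups compared, 0.23 thinned, 0.064 at 1000 UMIs, 0.0063 with clusters made without the 10 genes and lists, 0.037 with classes per nucleus, 0.068 in cluster 16 and 0.038 in cluster 12. Elovl6 was -1.04 to 0.55 over the removals (sign changed without rep134 or rep140). Me1 was -0.47 to 0.82 over the removals (sign changed without rep136 or rep138) and -0.28 in cluster 12. Srebf1 was -0.066 to 0.78 over the removals (sign changed without rep138). Mlxipl was -0.01 to 0.57 over the removals (sign changed without rep136).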

Other observations

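Elovl6, the elongase of palmitate, was highest outside the adipocyte-like class. Epithelial-like nuclei, found with at least 20 nuclei in 2 libraries, held 1032 CPM of Elovl6 in mCherry HFD mouse rep128 and 401 CPM in mCherry SD mouse rep146, against 15.2 to 124 CPM in adipocyte-like nuclei. In rep128 a cluster of 121 nuclei led by Adam28, Zfp804b and Lipc, with Lcn8, Lcn9 and Ovch2 also among its leading genes, held 1547 CPM. Another of 108 nuclei, with Lypd8, Pate13, Spag11b and Spink5 among its leading genes, held 844 CPM. Every nucleus of both had an Elovl6 UMI. Another cluster, with Ptprt and Mmp7 among its leading genes, held 231 CPM in 69 nuclei of rep128 and 394.5 CPM in 38 nuclei of rep146, and 60.9% and 60.5% of these had a UMI. In rep146 a further cluster of 64 nuclei led by Akr1b7, with Crisp1 among its leading genes, held 404 CPM, and 70.3% had a UMI. Acly was at 349 CPM in the epithelial-like nuclei of rep128 and at 94.4 CPM in those of rep146, while Fasn was at 26.1 and 14.7 CPM. No test was made, since only 2 libraries held these nuclei in number. Whether these nuclei belong to the fat depot itself or to neighbouring tissue was not tested either.

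The 32 nuclei of rep128 in the cluster led by liver genes held 791 CPM of Mlxipl, 407 of Elovl6, 262 of Acly, 232 of Thrsp and 156 of Fasn. Acacb was at 152 CPM there and Scd1 at 129.2 CPM.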
